A study of Bos indicus x Bos taurus with 11 samples.

Results

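Maternal and paternal RNA were compared gene by gene inside each of 6 skin fibroblast cultures from bovine fetuses with large offspring syndrome. LOS, as it is abbreviated, is an overgrowth of calves and fetuses that can follow assisted reproduction in cattle. The genes compared were those on chromosomes 1 to 29 with 10 or more allelic reads (reads assigned to 1 parental allele) in all 6 LOS libraries and a mean of 20 or more. Of 9716 genes in the table of allelic reads, 9674 lay on chromosomes 1 to 29 and 3986 met that rule. The other 5688 autosomal genes are not tested: 4722 autosomal genes had reads in all 6 libraries and 4001 had 10 or more in all 6. The 72 tested genes whose lowest library held exactly 10 reads had a median maternal share of 49.8%, and the 74 genes just outside, at 9 reads, had 48.7%.

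The fetuses were Brahman (Bos taurus indicus) by Angus (Bos taurus taurus) F1 hybrids taken at day 105 of gestation. LOS 1 to 3 were female and LOS 4 to 6 male. They came from assisted reproduction and weighed more than the 97th centile of the controls, which are 5 fetuses (2 females, 3 males) of the same cross from artificial insemination. Each library is the total RNA, depleted of ribosomal RNA, of a primary culture from 1 fetus. Control shares are given only as levels and were not tested. The labels name a single cross and do not say which breed was the dam, so the parent of origin and the breed of an allele cannot be told apart. They also do not say whether fetuses share a sire or a dam.

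In an F1 hybrid both alleles of a gene sit in the same nucleus and meet the same transcription factors, so that true differences between them are known to arise in cis, on the chromosome copy itself. A known source is a sequence difference between the parental breeds in a promoter, enhancer or splice site. Another is genomic imprinting, in which DNA methylation laid down in the egg or the sperm keeps 1 parental copy silent. Imprinted genes lie in clusters, several act on fetal growth, and loss of their marks is a known feature of LOS and of its human counterpart, Beckwith-Wiedemann syndrome. The maternal share used below is the maternal reads of a gene as a percent of its maternal and paternal reads, so that 50% is balance, and the log2 ratio is that of maternal over paternal reads, so that balance is 0.

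Total counts ran from 12084822 (LOS 1) to 19297167 (LOS 6), and autosomal allelic reads from 2156226 to 3802186, or 17.1% to 20.5% of the total counts. A tested gene had a median of 136 to 241 allelic reads in a library. At 160 reads, the median over genes and libraries, an even share has an exact 95% interval of 42.0% to 58.0%, which covers counting error only. The cultures carried the defining genes of fibroblasts: 14 of 14 markers were at 1 CPM (counts scaled to the library total) or more, and their summed level was 52484 to 69110 CPM. Markers of keratinocytes summed to 3.32 to 35.3 CPM, of endothelium to 7.95 to 13.2 CPM, of melanocytes and Schwann cells to 17.7 to 52.2 CPM and of leukocytes to 0.65 to 1.34 CPM. Those of pericytes and smooth muscle summed to 15.2 to 42.4 CPM, of adipocytes to 13.7 to 24.8 CPM and of skeletal muscle to 1.22 to 2.42 CPM. A share is a mean over all cells of a culture, in which fewer cells of a type and less RNA per cell cannot be told apart.

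Some properties of the allelic table touch every result. Of 42151 pairs of an autosomal gene and a LOS library with reads, 3 had an allele at 0 reads, so that a gene read from 1 allele alone is almost never in the table. In 428 of the 3958 tested genes that also had a total count, or 10.8%, the mean of the allelic reads exceeded the mean total count. Of those 428 genes 91 passed the test described next (21.3%), against 375 of the other 3530 (10.6%). Their calls were 38 maternal and 53 paternal, and a fit without these genes called 373, of which 225 maternal. The excess is stated below beside each such gene. Another 15 tested rows carry a numbered suffix on the gene symbol, of a meaning not given in the sources used here. These rows held 26.7% of the allelic reads of tested genes, and SUMO2_1, which bears the symbol of a ubiquitin-like modifier, had the most. Of 339 tested genes that overlap another tested gene 41 were called (12.1%). Among the called genes named below, ADAM12, ATF5, CTSK, FGF23, HSF1, LOC104975610, NAXE, RAB7A, RPS6, SPSB2, SUMO2_1, TBXA2R and USP5 do, and their shares are uncertain.

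Allelic imbalance was common and mostly small. Of 3986 genes, 471 (11.8%) had unequal maternal and paternal reads at a Benjamini-Hochberg adjusted p under 0.05 by edgeR's quasi-likelihood test with a term for each library. The maternal allele was higher in 265 of them (6.65%) and the paternal allele in 206 (5.17%). The median maternal share was 57.8% among maternal calls and 41.8% among paternal calls, and the median absolute log2 ratio was 0.46 and 0.49, against 0.16 over all tested genes. Mean shares lay within 5 points of balance in 2985 genes (74.9%). A distance of 10 points or more was found in 143 called genes, 78 of them at 60% or more and 65 at 40% or less. A share of 70% or more was reached by 9 called genes and 30% or less by 5, and the mean shares of all tested genes ran from 22.1% to 79.0%. In 351 of the 471 called genes all 6 fetuses were on the same side of balance, 201 maternal and 150 paternal. Among all 3986 tested genes this held for 607, 310 maternal and 297 paternal. The calls were made from these same shares, so the count among called genes is not separate support.

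**Figure D1:**
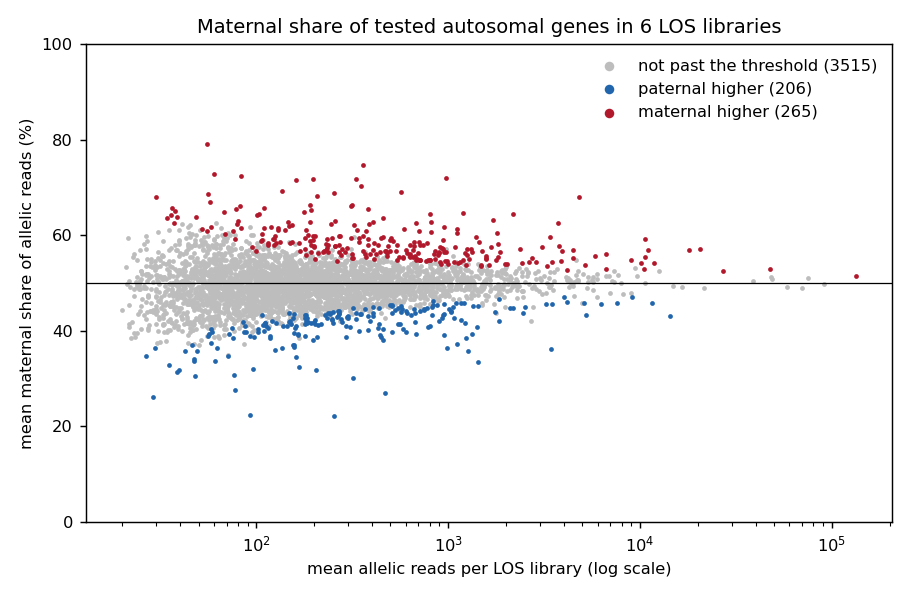
Mean maternal share (percent, y axis) of each of the 3986 tested genes against its mean allelic reads per LOS library (log scale, x axis). Red points are the 265 genes called maternal higher, blue points the 206 called paternal higher and grey points the rest, and the grey band narrows around the line at 50% as reads rise.

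The share of genes called followed read depth. In 5 groups of genes of about equal size, ordered by reads, it was 4.51%, 6.52%, 10.2%, 12.4% and 25.5%. The median absolute log2 ratio of the called genes went the other way, from 0.84 in the group with the fewest reads to 0.35 in that with the most. Low genes were thus called for large imbalance only, while a share of 51.5% was called at SUMO2_1, chosen after its value was seen, with 51.0% to 52.1% in the 6 libraries (adjusted p = 0.00608), though DESeq2 did not call it. Among the genes with the most reads 127 were called maternal and 76 paternal, and among those with the fewest 17 and 19.

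The imbalances recurred from fetus to fetus. Across the called genes, the shares of any pair of the 6 LOS libraries correlated at Pearson's r of 0.709 to 0.783, and across all tested genes at 0.198 to 0.278. Genes are not independent replicates, and the called genes were chosen on these shares. The controls, which the test did not use, had their mean on the same side of balance in 258 of the 265 maternal calls and 196 of the 206 paternal calls. Median control shares were 56.8% and 44.0%. Over the 448 called genes with a value in all 5 controls, LOS and control mean shares correlated at 0.907, and over all 3668 such tested genes at 0.671.

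Over the whole table the maternal allele held a small excess of reads. The maternal share of all allelic reads of tested genes was 50.69% ± 0.13 (SD, n = 6), above 50% in 6 of 6 libraries (50.49% to 50.89%). An exact sign-flip permutation test gave p = 0.0312 (two-sided), the smallest that 6 libraries allow. The 5 controls, which were not tested, had 50.51% to 50.83% over the same genes. The median share over genes in LOS averaged 49.86% ± 0.17 and was above 50% in 0 of 6 libraries. It was 50% in LOS 3 and LOS 4 and slightly lower in the rest, with exact permutation p = 0.125. The median gene thus did not show the maternal excess seen in the summed reads.

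The genes with the largest maternal excess were regulators and enzymes of several kinds. H2B_2, a histone H2B locus on chromosome 23 with 55.7 reads per library, had shares of 74.1% to 82.5% in LOS (median 79.4%), a log2 ratio of 1.86 ± 0.19 (SE) and an adjusted p of 4.42e-06. All 6 fetuses lay far above balance and close to one another. Histone genes have near-identical copies, so this value is uncertain. The histone gene HIST1H2AC beside it, chosen after its value was seen, had 49.0% to 67.6% (median 61.1%, adjusted p = 0.0138), a call lost without LOS 1 or LOS 4 (adjusted p up to 0.0623).

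CNPY3, which encodes an endoplasmic reticulum chaperone of toll-like receptors, had 63.5% to 86.4% (median 71.6%, adjusted p = 0.000253). HACD4, an enzyme of fatty acid elongation, had 62.3% to 80.4% (median 72.3%, log2 ratio 1.40 ± 0.15, adjusted p = 1.19e-05). CLU, the secreted chaperone clusterin, had 60.1% to 80.8% (median 71.3%, adjusted p = 3.31e-05). In each of these genes the lowest fetus was still over 10 points above balance. ATF5, a stress-response transcription factor, had the same direction in all 6 fetuses but a wide range: 51.3% in LOS 5 and 57.7% in LOS 1, against 83.5% to 87.2% in LOS 2, 4 and 6 (log2 ratio 1.70 ± 0.25, adjusted p = 0.000173).

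Both homeobox genes on this side are regulators of embryonic patterning. IRX1 had 64.1% to 75.6% (median 69.0%, log2 ratio 1.23 ± 0.11, adjusted p = 1.38e-06), with controls at 71.0% ± 2.70 (SD, n = 5). EN1, engrailed 1, had 55.1% to 76.4% (median 70.0%, adjusted p = 0.000103). No fetus was near or below balance in IRX1, and only LOS 1 was within 10 points of it in EN1. Also in the group with the largest maternal excess were TDRD7, a Tudor domain protein of RNA granules (mean share 68.6%, adjusted p = 0.00078), and ZCCHC17, an RNA-binding zinc finger protein (mean share 66.9%, adjusted p = 0.00235). Its other members, TBC1D10A (mean share 72.5%), PARVA and IGF2R, are described below.

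The smallest p of the whole table belonged to PARVA (chr15:40168037-40347128), which encodes alpha-parvin, a link between integrins and actin at focal adhesions. Its shares were 68.6%, 64.9%, 67.4%, 71.0%, 68.3% and 67.3% in LOS 1 to 6, with 3629 to 6450 reads behind each. The 6 fetuses lay close together, all well above balance. The log2 ratio was 1.08 ± 0.05 (SE) and the adjusted p 7.38e-10, and the controls stood at 67.6% ± 1.54 (SD, n = 5). CTSK, the collagen-degrading protease cathepsin K, had a smaller excess of like regularity, 55.3% to 58.4% (median 57.4%) at 20541 reads per library (log2 ratio 0.42 ± 0.03, adjusted p = 5.13e-07).

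RDH11, a retinol dehydrogenase, had 61.5% to 67.2% (median 65.3%, adjusted p = 9.07e-07). PTK7, a pseudokinase receptor of planar cell polarity, had 58.0% to 61.1% (median 59.8%, adjusted p = 1.38e-06). MARCH3, an E3 ubiquitin ligase, had 55.3% to 61.8% (median 60.0%, adjusted p = 1.14e-06) and more allelic reads (10560) than total counts (9271). These 3 genes were maternal in every fetus, and no 2 fetuses differed by more than 7 points.

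On the paternal side the largest imbalance was in GIPC3 (chr7:20343708-20350057), a PDZ domain gene known for its part in hearing. Its maternal shares were 32.4%, 29.3%, 21.6%, 14.0%, 19.3% and 16.1% in LOS 1 to 6, so that all 6 fetuses lay well below balance and LOS 1 and 2 nearest to it. The log2 ratio was -2.03 ± 0.17 (SE) and the adjusted p 6.44e-07. Its mean allelic reads (252.5) slightly exceeded its total count (220). TBXA2R, the thromboxane receptor gene next to it and chosen after its value was seen, was also paternal (39.7% to 49.3%, median 42.8%, adjusted p = 0.0105), with 612.5 allelic reads against a total count of 330.3.

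HSD17B14, a hydroxysteroid dehydrogenase of chromosome 18, had 14.8% to 37.3% (median 21.2%, log2 ratio -1.84 ± 0.19, adjusted p = 4.99e-06), and the controls averaged 23.2%. HOXC8, a homeobox gene of body-axis position, had 19.4% to 31.4% (median 26.0%, adjusted p = 0.000356) from only 28.8 reads per library. HTR1B, a serotonin receptor gene, had 22.1% to 39.7% (median 25.9%, adjusted p = 6.86e-05). In these 3 genes no fetus came within 10 points of balance.

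TENM4, a teneurin of the cell surface, had 21.3% to 39.5% (median 30.8%, adjusted p = 4.76e-05). UNC5B, a netrin receptor, had 14.8% to 42.6% (median 33.0%, adjusted p = 0.00233). NEO1, neogenin, also a netrin receptor, had 33.8% to 41.3% (median 36.3%, log2 ratio -0.76 ± 0.08, adjusted p = 4.42e-06). All fetuses were below balance in all 3, with the narrowest range in NEO1, which has the most reads.

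HS3ST4, which sulfates heparan chains of the cell surface, had 31.1% to 40.1% (median 36.6%) at 3416 reads per library (log2 ratio -0.83 ± 0.07, adjusted p = 5.48e-07). AHNAK, a giant scaffold protein, had 40.8% to 46.3% (median 43.0%, adjusted p = 1.15e-05), and ITM2C, a membrane protein gene, 33.2% to 43.6% (median 38.5%, adjusted p = 3.34e-05). IQGAP2, a cytoskeletal scaffold, had 24.3% to 49.2% (median 31.5%, adjusted p = 7.92e-05), but its 1436.5 allelic reads stood against a total count of 82. The same holds for FGF23, the phosphate hormone gene: 28.6% to 44.7% (adjusted p = 0.00416) came from 47.2 allelic reads against a total count of 1. Their shares are therefore shares of reads that the total counts of these genes do not hold.

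The other named paternal genes were BAK1, a promoter of apoptosis (mean share 31.9%, adjusted p = 0.00322), TRMT12, a tRNA-modifying enzyme (31.4%, adjusted p = 0.00103), ARHGEF5 (34.5%, adjusted p = 0.000794), and NAXE, a repair enzyme of the cofactor NADH (30.8%, adjusted p = 0.0223). The call of NAXE was lost without LOS 3 (adjusted p = 0.0553). Its fetuses were far apart, at 11.4% in LOS 3 and 15.6% in LOS 6 against 33.3% to 46.0% in the other 4.

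**Figure D2:**
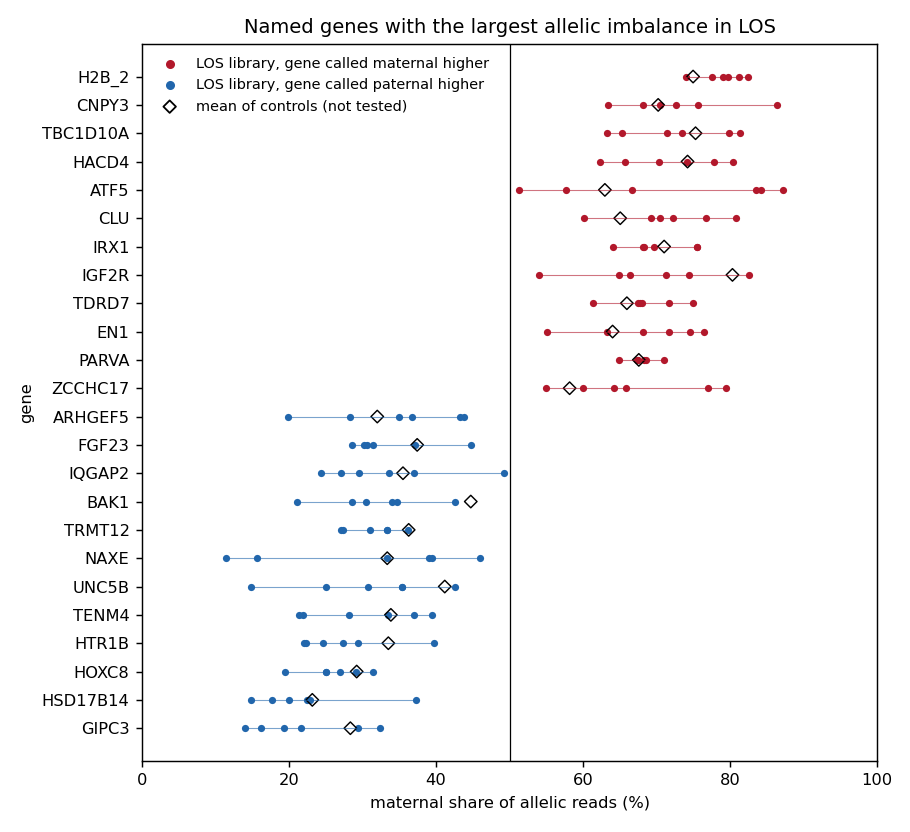
Maternal share of allelic reads (percent, x axis) of the 12 named genes with the largest maternal and the 12 with the largest paternal imbalance (y axis). Each filled point is 1 LOS library, lines join the lowest and highest library and open diamonds are control means, which were not tested; the LOS points of each gene lie on 1 side of 50%.

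Unnamed loci (LOC symbols) were among the most imbalanced. LOC104975610, a long noncoding RNA of chromosome 22, had 70.8% to 78.6% (median 74.6%, log2 ratio 1.55 ± 0.10, adjusted p = 4.41e-08), with 358.7 allelic reads against a total count of 1. LOC509034, annotated as protein coding on chromosome 10, had 66.4% to 77.4% (median 71.2%, adjusted p = 4.41e-08), with 971 allelic reads against a total count of 49.5. LOC510798 on chromosome 29 had 17.0% to 33.3% (median 28.0%, log2 ratio -1.49 ± 0.13, adjusted p = 1.14e-06) and a mean level of 96.1 CPM. The 3 loci were on the same side in all 6 fetuses. LOC101906606 and LOC101905499, both long noncoding, were paternal (mean shares 31.9% and 38.9%, adjusted p = 0.000115 and 0.005), and both had more allelic reads than total counts. In all, 11 of 81 tested long noncoding genes were called (13.6%), 6 maternal and 5 paternal, near the 11.8% of all genes.

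Imprinted genes were the group for which the 2 parental alleles are known to behave differently. Of 33 listed genes that are expressed from the maternal allele in some mammal or tissue, 15 were in the allelic table and 11 were tested. Of the 11, 1 was called maternal (IGF2R), 2 paternal (CD81 and ATP10A) and 8 did not pass. Thus 27.3% were called against 11.8% of all tested genes, with a median of 445.5 reads per gene against 172. The median maternal share of the 11 was 49.6%, against 49.7% over all tested genes. Genes read from 1 allele alone are almost never in the table. This median therefore describes imprinted genes read from both alleles in all 6 libraries, not imprinted genes at large. Of 34 listed genes expressed from the paternal allele, 11 were in the table and 1 was tested, INPP5F.

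IGF2R (chr9:96197493-96300019), the receptor that takes up insulin-like growth factor 2 and sends it to the lysosome, had maternal shares of 82.6%, 74.4%, 66.5%, 71.3%, 64.9% and 54.0% in LOS 1 to 6. Every fetus was above balance, but they spread over 28.6 points, from LOS 1 near a maternal excess of the control size to LOS 6 near balance. The log2 ratio was 1.18 ± 0.17 (SE) and the adjusted p 0.000177. The 5 controls lay between 78.0% and 84.2% (80.3% ± 2.62, SD, n = 5). The SD over LOS fetuses was 9.68 points, with 319 to 848 reads per library.

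The other called members of the maternal list had more paternal reads. ATP10A, a phospholipid flippase gene, had 39.2% to 43.9% (median 42.3%, log2 ratio -0.47 ± 0.06, adjusted p = 7e-05), and the controls averaged 42.0%. CD81, a tetraspanin gene, had 37.0% to 46.7% (median 40.8%, adjusted p = 0.00122), and the controls 42.9%. Both were paternal in 6 of 6 fetuses. ATP10A had slightly more allelic reads (1850.5) than total counts (1776.5).

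INPP5F, a phosphoinositide phosphatase gene with a paternally expressed isoform in mouse and human, had 50% in LOS 1 and 54.6% to 65.6% in the other 5 (median 61.9%, log2 ratio 0.57 ± 0.12, adjusted p = 0.00306). It was thus on the maternal side. BAG3, the co-chaperone gene that neighbours it, chosen after its value was seen, was maternal as well (53.1% to 62.0%, median 58.2%, adjusted p = 0.00233).

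GRB10, a growth-restraining adaptor of insulin and IGF receptors, had shares of 43.0% in LOS 1 and 48.1% to 52.6% in the other 5 (log2 ratio -0.02 ± 0.07, adjusted p = 0.904). Its 3414.5 allelic reads stood against a total count of 1139. NAP1L4, a histone chaperone gene (46.7% to 53.1%, adjusted p = 0.887), and UBE3A, the ubiquitin ligase of Angelman syndrome (39.5% to 57.1%, adjusted p = 0.876), lay on both sides of balance too. OSBPL5, TSSC4, PHACTR2, TRAPPC9 and TFPI2 had mean shares between 46.3% and 54.5% and did not pass (adjusted p = 0.133 to 0.76). The widest of these was TFPI2, a protease inhibitor gene, from 28.4% in LOS 5 to 64.4% in LOS 3.

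Imprinted genes that did not meet the rule on reads are given without a test, for the fetuses in which they had 10 or more reads. SGCE, a sarcoglycan gene expressed from the paternal allele, had 63 maternal and 419 paternal reads in LOS 2, a maternal share of 13.1% (exact 95% interval 10.2% to 16.4%). PEG10, the retrotransposon-derived gene next to it, had 17.4% (13.1% to 22.4%), also in LOS 2 alone. SNRPN, a splicing protein gene expressed from the paternal allele, had 18.1% in LOS 2, 25.8% in LOS 3 and 33.1% in LOS 5. SGCE, PEG10 and SNRPN lay on the paternal side in each LOS library with 10 or more of their reads. Since reads from 1 allele alone are almost never in the table, these shares do not describe the other LOS libraries.

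PPP1R9A, a neuronal scaffold gene with maternal expression in some tissues, lay near balance, with 42.6% to 55.6% in 5 fetuses. IMPACT, a regulator of translation that is paternally expressed in mouse, had 38.2% to 50% in 4 fetuses. PEG3, a paternally expressed zinc finger gene, had 36.4% from 11 reads in LOS 5. BEGAIN, PLAGL1 and RASGRF1 had 0 allelic reads in LOS, which does not show whether they were expressed.

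MAGEL2, in the same cluster as SNRPN, had 29.2%, 42.3% and 20.8% in LOS 2, 3 and 5 from 24 to 72 reads. MEG8, a noncoding RNA expressed from the maternal allele, had 78.0% in LOS 1 (65.3% to 87.7%, 59 reads). COPG2 had 65.7% in LOS 1 from 35 reads, with an exact interval of 47.8% to 80.9%, and 27.3% to 31.9% in LOS 2 to 5 from 32 to 69 reads. The LOS 1 share was on the other side of balance, but its interval includes balance, so a switch of side in LOS 1 is not shown. KCNQ1, a potassium channel gene, had 31.1%, 36.0% and 43.8% in LOS 1, 2 and 3. A paternally expressed antisense RNA is known to arise inside KCNQ1, and the use of strand in the counting is not stated in the sources at hand.

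**Figure D3:**
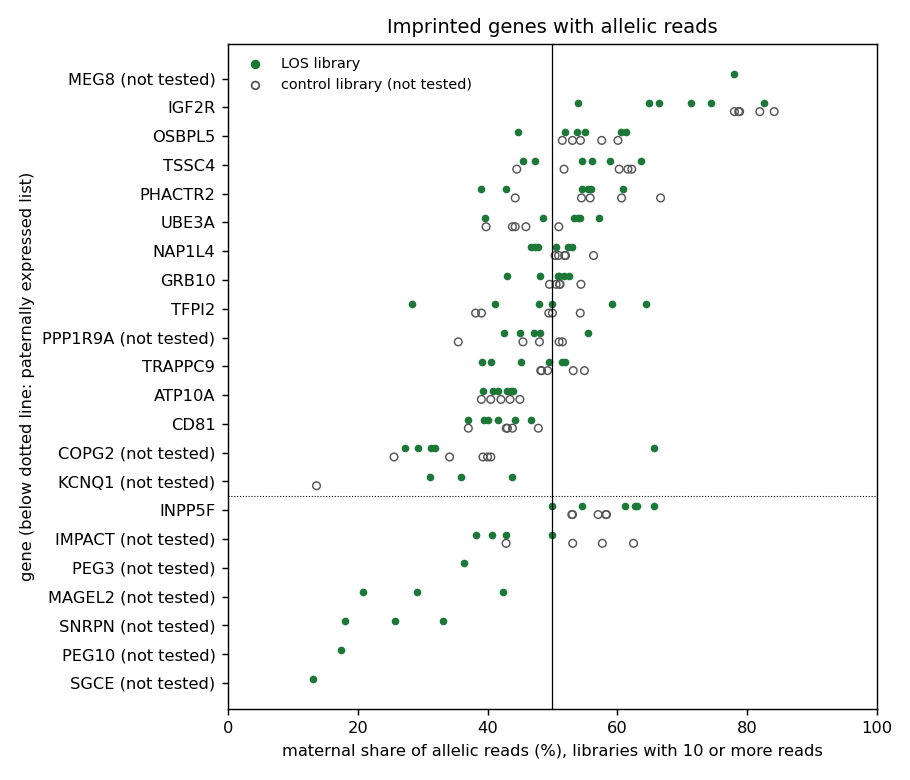
Maternal share of allelic reads (percent, x axis) of imprinted genes (y axis) in each library with 10 or more reads, with LOS as filled and controls as open circles. IGF2R ranges from 54.0% to 82.6% in LOS, while SGCE, PEG10, SNRPN and MAGEL2 lie below 50% in the LOS libraries that have reads.

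By genome position, 3 imprinted clusters held the following tested genes. In the cluster of chromosome 29, from OSBPL5 (mean share 54.5%) to CD81 (41.5%), LOC510798 (27.1%) lies between OSBPL5 and NAP1L4 (49.6%) and had the largest imbalance of the tested genes there. In that of chromosome 21, ATP10A was paternal, UBE3A was not called, and the untested SNRPN and MAGEL2 were below balance. On chromosome 4, CASD1, a sialic acid acetyltransferase gene that neighbours SGCE, was paternal (27.8% to 46.4%, adjusted p = 0.044). Its call was lost without any 1 of LOS 1, 2, 3, 4 or 6 (adjusted p up to 0.16). SLC25A29, a mitochondrial transporter gene near MEG8 on chromosome 21, was paternal in all 6 fetuses (31.2% to 45.9%, median 37.9%, adjusted p = 0.00233). On the list of neighbours of imprinted clusters 7 genes were tested, and CASD1 and SLC25A29 were called (28.6%, against 11.8% of all genes), and 4 of the 7 had mean shares on the maternal side.

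In the list of IGF and insulin signalling, the growth axis around IGF2R, 1 of 20 tested genes was called (5%, against 11.8% of all genes), IGF2R itself. IGF1R, the growth-promoting receptor, had 42.1% to 52.4% (adjusted p = 0.154), and its control mean was 38.3%. TSC1 and TSC2, which restrain growth signalling through mTOR, had mean shares of 52.7% and 57.6% (adjusted p = 0.201 and 0.0604). In DNA methylation and imprint protection 1 of 14 was called (7.14%): TRIM28, a corepressor that guards imprints in the early embryo, at 33.8% to 48.2% (median 42.5%, adjusted p = 0.0236). It was below balance in all 6 fetuses, but the call was lost without LOS 2, 3 or 6 (adjusted p up to 0.0985). DNMT1, the maintenance methyltransferase, had 47.7% to 61.4% (adjusted p = 0.136) and UHRF1, its partner, 41.2% to 47.6% (adjusted p = 0.162).

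The lists of genes by function that follow are read against the 11.8% called over all tested genes and against depth, since 25.5% were called among the genes with the most reads. The collagens and other matrix genes, which fibroblasts make in the largest amounts, had 32 tested members with a median share of 49.7%. They held 3 maternal and 4 paternal calls, or 21.9% against 11.8% of all genes, with a median of 1805 allelic reads per gene against 172. THBS2, the matrix regulator thrombospondin 2, was maternal with 49.5% in LOS 4 and 56.0% to 62.5% in the other 5 (log2 ratio 0.41 ± 0.07, adjusted p = 0.000476). COL5A1, a chain of the collagen that starts fibrils, had 49.8% in LOS 6 and 53.3% to 56.5% in the other 5 (adjusted p = 0.00219). LAMB1, a laminin chain, was paternal in all 6 fetuses (41.9% to 48.7%, adjusted p = 0.00645). POSTN, periostin, was the remaining paternal call (43.0%, adjusted p = 0.0473) and was named after its value was seen.

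The 3 chains of collagen VI, which assemble into 1 protein, did not share a direction. They were chosen after their values were seen. COL6A2 was maternal, with 51.3% in LOS 1 and 57.0% to 60.4% in the other 5 (log2 ratio 0.40 ± 0.05, adjusted p = 4.74e-05). COL6A1, its neighbour on chromosome 1, was paternal with 40.0% to 49.8% (median 46.2%, adjusted p = 0.0108), and so was COL6A3 on chromosome 3 with 43.3% to 49.2% (median 44.7%, adjusted p = 0.0136). In LOS 1 to 6 alike the share of COL6A2 was above that of COL6A1. The call of COL6A3 was lost without LOS 4 or LOS 6 (adjusted p up to 0.064).

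Among 13 matrix proteases and inhibitors, CTSK and SERPINH1 were maternal and ADAM12 paternal (23.1%, with a median of 909 reads per gene). SERPINH1, the collagen chaperone HSP47, had 52.3% to 59.3% (median 55.7%, adjusted p = 0.000177), and ADAM12, a membrane metalloprotease, 40.9% to 48.5% (median 44.3%, adjusted p = 0.00184). In the contractile and actin list of 27 genes, 3 were maternal and 2 paternal (18.5%, against 11.8% of all genes). Their median of 661 reads per gene lies in the group with the most reads, where 25.5% were called. The integrin chains ITGAV (54.9% to 61.0%, adjusted p = 0.000961) and ITGA1 (35.7% to 42.6%, adjusted p = 0.000444) went opposite ways, each in all 6 fetuses. VCL, vinculin, had 50.4% to 54.2% (adjusted p = 0.0236, lost without LOS 2, 4, 5 or 6, up to 0.0752). MYL12B, a myosin light chain gene named after its value was seen, was paternal (41.9%, adjusted p = 0.0305).

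Detoxification genes had 4 calls among 12 (33.3%, against 11.8% of all genes). GSTK1 and SULT1A1, a glutathione transferase and a sulfotransferase, were maternal in all fetuses (57.6% to 71.0%, adjusted p = 0.00815, and 55.2% to 79.7%, adjusted p = 0.000367). GSTZ1, of tyrosine breakdown, was paternal in all (25.0% to 47.2%, adjusted p = 0.00327), with slightly more allelic reads (156.5) than total counts (148.5). GSTT1 was paternal in 5 fetuses and at 55.6% in LOS 6 (adjusted p = 0.0169), a call lost without LOS 2 or LOS 4 (up to 0.0868). Glutathione transferases belong to families of similar genes, so their shares are uncertain.

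Heat shock and endoplasmic reticulum chaperones had 6 calls among 13 (46.2%, against 11.8% of all genes), with a median of 447 reads per gene against 172. HSPA1A, the inducible HSP70, was paternal at 34.6% to 41.2% (median 39.7%, log2 ratio -0.67 ± 0.09, adjusted p = 6.72e-05). HSF1, the heat shock transcription factor, was paternal at 35.4% to 44.7% (adjusted p = 0.0104, 0.0606 without LOS 2). The controls averaged 36.8% and 40.7%. On the maternal side were BAG3, HYOU1 (52.4% to 56.6%, adjusted p = 0.0177, lost without LOS 2 or 5, up to 0.0583) and, named after their values were seen, PDIA4 (57.4%, adjusted p = 0.0276) and HSP90AB1 (53.7%, adjusted p = 0.0337). HSPA1A has a near-identical copy and its value is uncertain. Of the 5 tested genes on the list of cattle stature, coat and heat tolerance loci, these heat shock genes were the 2 called.

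In the list of cytokines, chemokines and complement 4 of 13 were called (30.8%, against 11.8% of all genes). IL1R1, the interleukin 1 receptor, was paternal (35.8% to 43.7%, median 40.1%, adjusted p = 0.000176), and ACKR3, a scavenger receptor of CXCL12, maternal (53.1% to 72.1%, median 60.8%, adjusted p = 0.000707). CD46, which restrains complement on the cell's own surface, was maternal (54.8% to 72.0%, median 67.0%, log2 ratio 0.88 ± 0.12, adjusted p = 0.000112). C1S, a protease of the complement cascade, was paternal in 5 of 6 fetuses (31.8% to 51.2%, adjusted p = 0.00701). Of 7 tested interferon response genes SAMD9 was called (54.1% to 69.4%, adjusted p = 0.0279, lost without LOS 1 or 6, up to 0.183), and of 2 tested antigen presentation genes 0.

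In Wnt signalling 2 of 17 were called (11.8%), the share of all tested genes. SFRP1, a secreted Wnt inhibitor, was paternal in all 6 fetuses (29.6% to 47.6%, median 32.4%, log2 ratio -0.81 ± 0.16, adjusted p = 0.00306), and its controls averaged 53.6% ± 13.8 (SD, n = 5). FZD3, a Wnt receptor, was maternal (56.8% to 64.1%, adjusted p = 0.00427). Of 23 genes of the TGF-beta and BMP pathways 2 were called (8.7%, near that share): FSTL1, a secreted glycoprotein, was paternal (39.4% to 49.3%, adjusted p = 0.0296, lost without LOS 2, 4 or 5, up to 0.0968). ACVR2A, an activin receptor, was maternal (adjusted p = 0.0474), a call lost without any 1 library other than LOS 2 (up to 0.166).

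Energy metabolism had shares of called genes near the 11.8% of all genes, 10.5% in oxidative phosphorylation and 8.7% in glycolysis and hypoxia. Of 19 oxidative phosphorylation genes, COX4I1, a subunit of cytochrome oxidase, was maternal (57.5% to 73.3%, median 60.5%, log2 ratio 0.73 ± 0.12, adjusted p = 0.000554). ATP5F1A, a subunit of ATP synthase, was paternal (31.8% to 49.2%, adjusted p = 0.0293, lost without LOS 3, 4 or 5, up to 0.114). Of 23 glycolysis and hypoxia genes, EPAS1, the hypoxia factor HIF-2 alpha, was maternal (55.7% to 64.8%, adjusted p = 0.00199). EGLN3, a prolyl hydroxylase that marks such factors for decay, was paternal (16.7% to 50%, adjusted p = 0.0469, lost without LOS 2, 3, 4 or 5, up to 0.167).

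In the list of sterol and fatty acid genes, with 20 tested members, FADS1, a fatty acid desaturase, and ELOVL1, an elongase, were paternal in 5 of 6 fetuses each (adjusted p = 0.0363 and 0.0399). Those calls were lost without LOS 1, 2, 3 or 4 (up to 0.13) and without LOS 1, 2, 3, 4 or 5 (up to 0.137).

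Of 13 ribosomal protein genes 5 were called (38.5%, against 11.8% of all genes): RPS6 (37.5% to 46.1%, adjusted p = 0.00127), RPLP2 and, named after its value was seen, RPL13A were paternal, RPL8 (50.1% to 59.9%, adjusted p = 0.0181) and RPL24 maternal. Calls were lost without LOS 6 for RPL8 (0.0745) and without LOS 2, 3, 4 or 6 for RPL24 (up to 0.0993). RPLP2 lost its call without LOS 2 or 4 (up to 0.0576). Ribosomal protein genes have many pseudogenes, and the sources used here do not say how shared reads were treated, so these values are uncertain. In the cell cycle list 1 of 17 was called (5.88%), CDKN2B, an inhibitor of cyclin-dependent kinases (46.8% to 66.5%, adjusted p = 0.0465). That call was lost without any 1 library other than LOS 4 (up to 0.195). In DNA repair 0 of 19 passed edgeR's test, with ERCC1 the nearest (mean share 42.2%, adjusted p = 0.0675).

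The list of homeobox and identity factors had 4 calls among 9 (44.4%, against 11.8% of all genes), EN1 maternal and HOXC8, MEIS1 and TWIST2 paternal. The median of the 9 was 516 reads per gene against 172 over all tested genes. IRX1, maternal, was not on the list and is not in this count. MEIS1, a partner of HOX proteins, had 40.0% to 47.5% (median 43.5%, adjusted p = 0.0289), lost without LOS 1, 2, 3, 4 or 6 (up to 0.0859). TWIST2, a transcription factor of dermal fibroblasts, had 39.6% to 51.1% (adjusted p = 0.0212), lost without LOS 3, 4 or 6 (up to 0.0879), with 2511 allelic reads against a total count of 749. It was the 1 call among 6 tested fibroblast markers. No tested gene came from the marker lists of the other 7 cell types.

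Imbalanced genes were found on all 29 autosomes. The highest shares of called genes were on chromosome 7 (36 of 203 tested, 17.7%), chromosome 29 (15 of 85, 17.6%), chromosome 22 (6 of 41, 14.6%) and chromosome 23 (20 of 137, 14.6%). The lowest were on chromosome 26 (8 of 93, 8.6%) and chromosome 17 (12 of 138, 8.7%). Chromosome 7 held 23 maternal and 13 paternal calls, and chromosome 29 held 6 and 9. The number of genes in the allelic table is uneven, from 47 on chromosome 13 to 719 on chromosome 3, so that some chromosomes rest on few genes.

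**Figure D4:**
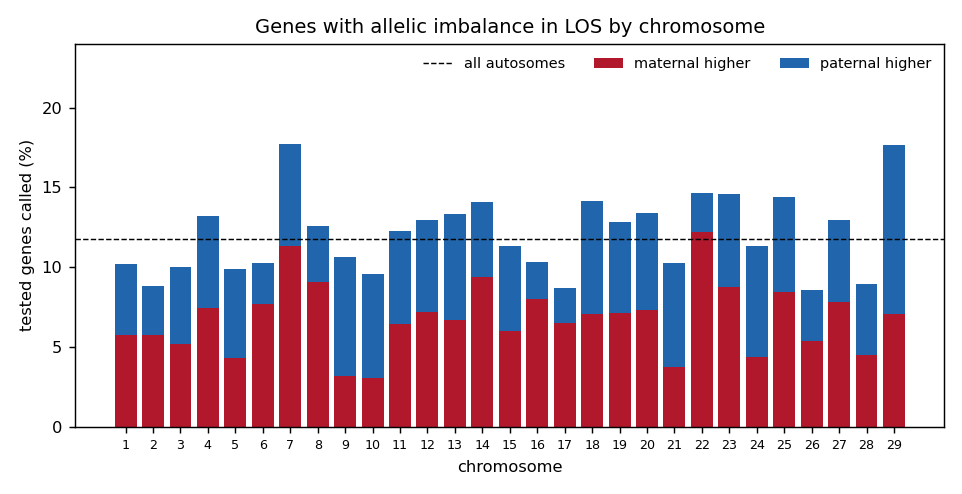
Percent of tested genes called (y axis) on each autosome (x axis), with maternal calls in red and paternal calls in blue stacked on them. The dashed line is the 11.8% of all autosomes, and chromosomes 7 (17.7%) and 29 (17.6%) stand highest.

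Neighbouring genes lay on the same side of balance about as often as on opposite sides. Of 3957 pairs of adjacent tested genes, 2014 (50.9%) had fitted log2 ratios on the same side of balance. Of the 894 pairs at most 10 kb apart 50.7% did. Both genes were called in 69 pairs, of which 41 (59.4%) had the same direction and 28 opposite directions. At most 10 kb apart these were 12 and 10 of 22 pairs. The longest runs of called neighbours in 1 direction held 3 genes, and there were 2 of these, both maternal, besides 37 runs of 2.

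The run on chromosome 17 (chr17:69307674-69596096) held TBC1D10A, an inactivator of Rab proteins, at 63.2% to 81.4% (median 72.5%, adjusted p = 0.000129). TCN2, the vitamin B12 carrier transcobalamin, followed at 50.1% to 64.7% (adjusted p = 0.00675). SEC14L2, a lipid-binding protein gene between them, had 45.3% to 72.9% (adjusted p = 0.0407), a call lost without any 1 library other than LOS 2 (up to 0.217), and more allelic reads (52.3) than total counts (22). The run on chromosome 22 (chr22:59174743-59296073) held LOC104975610, RAB7A, a Rab protein of late endosomes (52.5% to 57.9%, adjusted p = 0.00233), and RPN1, a subunit of the N-glycosylation complex (54.1% to 61.0%, adjusted p = 0.000507). LOC104975610 overlaps the end of RAB7A on the other strand, so reads of the 2 may not be separable.

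Some close neighbours were imbalanced in opposite directions, and they were picked after their values were seen. BCAT2, which starts the breakdown of branched-chain amino acids, lies 2.04 kb from HSD17B14 on the same strand of chromosome 18. BCAT2 was maternal with 53.9% to 71.6% (median 60.6%, log2 ratio 0.74 ± 0.13, adjusted p = 0.000795), whereas HSD17B14 had 14.8% to 37.3%. The ranges of the 2 genes did not overlap, and their controls averaged 66.5% and 23.2%. H1FX, a linker histone gene, starts 151 bp from LOC104975610 on the other strand. H1FX was paternal in 5 of 6 fetuses (24.6% to 56.3%, adjusted p = 0.0313, lost without LOS 1, 4 or 5, up to 0.143), against 70.8% to 78.6% at the noncoding gene.

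C1S was paternal while LOC112446757, a noncoding gene 4.03 kb away on the same strand, was maternal (57.9% to 71.1%, median 67.0%, adjusted p = 6.33e-05) with 310.7 allelic reads and a total count of 0. CNN1, a calponin of contractile cells, was maternal (55.8% to 62.2%, adjusted p = 0.0043), and ELOF1, a transcription elongation factor 2.47 kb away, paternal (34.7% to 43.8%, adjusted p = 0.033). The call of ELOF1 was lost without LOS 1, 2, 3, 4 or 6 (up to 0.102). In both pairs each fetus had the higher share at the same gene.

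Of the other pairs under 5 kb, PNPLA2, a triglyceride lipase gene, was maternal (48.9% to 63.6%, adjusted p = 0.0469) and RPLP2, 2.85 kb away, paternal (11.1% to 44.6%, adjusted p = 0.0159). PNPLA2 lost its call without any 1 library other than LOS 1 (up to 0.141) and RPLP2 without LOS 2 or 4 (up to 0.0576). RALGDS, an activator of Ral, was maternal (52.2% to 65.8%, adjusted p = 0.00259), and GBGT1, a glycosyltransferase gene, paternal in 5 fetuses (30.4% to 59.7%, adjusted p = 0.033, lost without LOS 2, 3, 4 or 5, up to 0.131), with 278.7 allelic reads against a total count of 195.3. In this pair LOS 6 was the exception, with 59.6% and 59.7%. LUC7L, a splicing factor gene, was maternal (51.8% to 57.5%, adjusted p = 0.0227) beside HBQ1, a globin gene (13.8% to 50%, adjusted p = 0.0328) with more allelic reads (47.5) than total counts (13.3). Both calls were lost without LOS 1, 4, 5 or 6 (up to 0.0713 and 0.123).

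LOC112446042, a noncoding gene 4.14 kb from TWIST2 on the other strand, was maternal in all fetuses (55.8% to 80.8%, median 58.5%, adjusted p = 0.00402), opposite to TWIST2. SPSB2 and USP5 overlap each other, so that reads of the 2 may not be separable. SPSB2 (mean share 54.0%, adjusted p = 0.0423, lost without LOS 1, 2, 4, 5 or 6, up to 0.188) had 995.3 allelic reads against a total count of 35.7. USP5, a deubiquitinase gene, was paternal at 39.8% (adjusted p = 0.0267, lost without LOS 2, 3, 4 or 6, up to 0.0824).

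**Figure D5:**
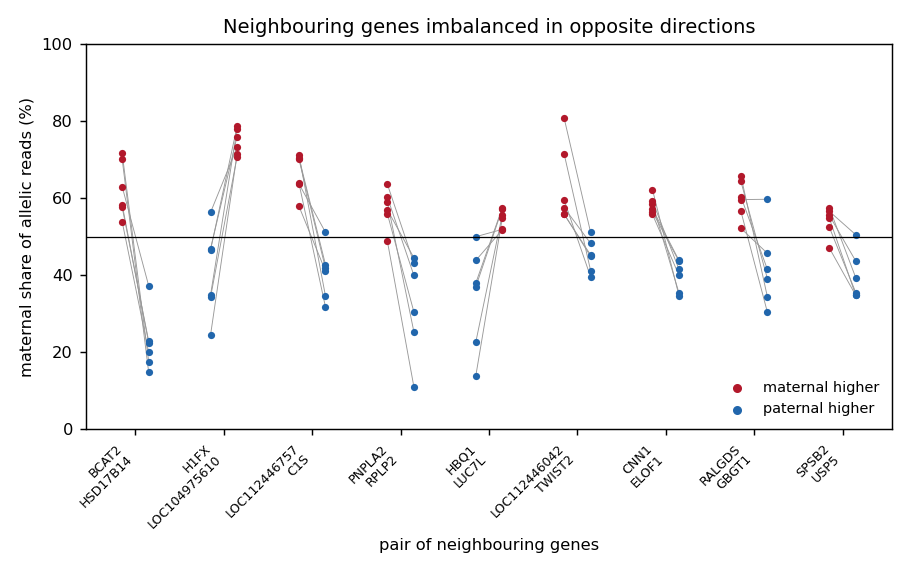
Maternal share of allelic reads (percent, y axis) at 9 pairs of neighbouring genes less than 5 kb apart or overlapping (x axis, the pair ordered by the size of its difference) that were called in opposite directions, with 1 point per LOS library. Grey lines join the 2 genes of a fetus; at BCAT2 and HSD17B14 they run from 53.9% or more down to 37.3% or less.

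Female and male LOS fetuses could be compared within the same fits. The term for a difference in imbalance between the sexes passed the threshold in 0 of 3986 genes (0%) by edgeR's quasi-likelihood test, with 193 genes at an unadjusted p under 0.05. limma called 0 and DESeq2 called 2, CD46 and CD34. In CD46 the females had 70.0% to 72.0% and the males 54.8% to 64.1%. In CD34, a sialomucin of progenitor cells and some fibroblasts, the females had 40.8% to 70.9% and the males 12.1% to 20%, from 10 to 117 reads per library. The sexes did not overlap in either gene, and both had an adjusted p of 0.0776 in the edgeR fit. Both were picked by tests of this same difference, so the lack of overlap is not separate support. DESeq2 gave an adjusted p of 0.0301 for each, and without LOS 6 edgeR called CD46 (adjusted p = 0.00507).

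CD34 and CD46 lie 92.7 kb apart on chromosome 16 with 0 tested genes between them. The next genes were HDLBP, an RNA-binding protein of lipoprotein metabolism (females 47.8% to 49.9%, males 59.0% to 67.1%, adjusted p = 0.141), and PDLIM2, a PDZ and LIM domain protein (females 60.7% to 67.8%, males 38.4% to 55.4%, adjusted p = 0.647). GEM, a small GTPase, was maternal in the fit of all 6 fetuses (51.6% to 69.7%, adjusted p = 0.00584), with 53.6% in females and 65.0% in males on average (adjusted p of the difference 0.647). Groups of 3 against 3 limit this comparison.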

How the data were processed

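Ribosomal-depleted total RNA of fibroblast cultures from 6 LOS and 5 control fetuses was sequenced, per the labels' protocols. The authors deposited whole read counts per parental allele and gene, analysed here, and expected counts per gene (estimated reads, not normalised), used here only as depth and CPM. Per the submitters' processing notes, the build was ARS-UCD1.2 and the tools included HISAT2 2.1.0, GATK and Picard 2.22.4. The sources used here do not give how sites were called, how reads were assigned to a parent, or the strand rule. Whether alignment treated both breeds' alleles alike was not tested. Coordinates are those of the deposited file.

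Reads were fitted in R 4.3.3 with edgeR 4.0.16 (glmQLFit, glmQLFTest), with a term per library and the allele. Both alleles of a library, which come from 1 fetus and so are paired, had the same library size. Genes were called at a Benjamini-Hochberg adjusted p under 0.05 over all 3986 genes. The standard error is the log2 ratio over the root of F. A second fit added allele by sex. The fit was tested on simulated data with the same spread set for every gene. It recovered 87% of 100 genes with an absolute log2 ratio of 0.75 and 100% of 100 with 1.5. Of its 194 calls 7 were false. Genes with a wider spread between fetuses were not simulated. Shares are means over libraries, with SD. Alternatives were DESeq2 1.42.0, limma 3.58.1 on log2 ratios, TMM factors per allele, minimums of 1 or 50 reads, no library term, a sex term and each library left out. Fits without suffixed, overlapping or excess-read genes were added after seeing the data.

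Named genes are, per direction, the 12 largest ratios, 3 largest LOC loci and 6 smallest p among called genes on 1 side in all 6 libraries, plus tested imprinted genes, up to 4 of each other list by p, and the 3 smallest p per direction for sex. Others are marked as chosen after their values were seen. Members and lists were chosen with earlier results of these data known. The third deposited table was not used here. Figures used matplotlib 3.10.9. A result on 1 named gene is not reported here.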

Additional observations from a re-analysis of the deposited data

Results flagged for a closer look

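In 157 named genes the highest or lowest LOS library was compared with the others, and in 7 it stood apart by more than Dixon's 95% critical value for the gap over the range. Chance alone marks about 1 in 20 such groups. In LOS 2, ACVR2A had a maternal share of 32.1% from 28 reads, against 55.1% to 65.0% in the others, and DGAT1, a triglyceride synthesis gene, 25.3% from 87 reads against 45.6% to 56.8%. COL6A2 had 51.3% in LOS 1 from 14719 reads, against 57.0% to 60.4% elsewhere. In LOS 4, EPAS1 had 64.8% against 55.7% to 59.1%, and WLS, which carries Wnt proteins to the cell surface, 54.8% against 42.7% to 44.9%. FST, follistatin, had 75.0% in LOS 5 from 16 reads, against 25.0% to 42.3%. HSD17B14 had 37.3% in LOS 3 from 51 reads, against 14.8% to 22.9%. The total count of LOS 6, 19297167, also stood apart from those of the other LOS libraries.

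In 2 of the named genes every female lay on the other side of balance from every male. The male minus female difference in maternal share was 13.2 points in HDLBP and 24.5 points in ZDHHC13, a palmitoyltransferase gene. The test of the difference itself did not pass for either (adjusted p = 0.141 and 0.647 by edgeR's allele by sex term). Both genes were named for their small unadjusted p in that same test, which picks genes whose sexes lie apart. The split is therefore not separate support for a difference. How many of all tested genes split in this way is not given.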

How the results depend on the processing

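The count of 471 imbalanced genes was within 1.5 times in most fits: 481 with TMM factors per allele, 385 by limma, 420 of 2453 genes with 50 or more reads, 491 of 4722 with 1 or more, 459 with a sex term, 347 to 359 with 1 library left out. It was 469 without suffixed rows, 426 without overlapping genes and 373 without genes whose allelic reads exceed total counts. DESeq2 called 313, all among the 471, and the fit with no replicate block, which leaves the spread between libraries in the error, called 4. None of the 471 had the other direction in any of these fits. Of 107 named called genes, 75 passed in every fit with 1 library left out, 89 by DESeq2 and 94 by limma. POSTN, MYL12B, PDIA4, HSP90AB1 and RPL13A are not among these 107. For allele by sex DESeq2 called 2 genes, and leaving out 1 library gave 0 to 1. The maternal share of all reads was 50.6561% to 50.7368% with 1 library left out (exact p = 0.0625, the smallest 5 libraries allow). The median over genes averaged 49.8619%, just below 50%, and its exact permutation test gave p = 0.125.

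Log2 ratios that changed sign were all of uncalled genes. CANX was -0.003 with TMM factors and -0.0353 to 0.0316 with 1 library left out. GRB10 was 0.0208 with no replicate block and -0.0515 to 0.0501 with 1 library left out. IRF9 was 0.0001 with a sex term (-0.1703 to 0.2244 with 1 library left out). PRELP was 0.0101 by DESeq2, 0.0053 by limma and 0.0206 with no replicate block (-0.177 to 0.2445). ZDHHC13 was 0.0513, 0.1553 and, with a sex term, 0.2051 (-0.2716 to 0.1322). With 1 library left out, DGAT1 ran from -0.346 to 0.0088, NAP1L4 from -0.0673 to 0.0084, TFPI2 from -0.2612 to 0.07 and UBE3A from -0.0019 to 0.1832. The cause of these was not tested. Depth limits small imbalance in genes with few reads, of which few were called.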

Other observations

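Some genes differed more between LOS fetuses than any common direction, and were picked for that after their values were seen, among genes with 100 or more reads in every library. MFGE8, an abundant secreted glycoprotein gene of fibroblasts, had maternal shares of 68.8%, 72.3% and 68.5% in LOS 1, 2 and 4, against 48.0%, 40.5% and 44.6% in LOS 3, 5 and 6 (log2 ratio 0.43 ± 0.20, adjusted p = 0.186 by edgeR). TENM3, a teneurin like TENM4, ran from 25.4% in LOS 6 to 62.5% in LOS 5. PRELP, a matrix proteoglycan gene, ran from 27.7% in LOS 6 to 66.3% in LOS 1, and CEMIP, of hyaluronan breakdown, from 30.5% in LOS 2 to 63.6% in LOS 4. IRF9, of the interferon response, ran from 28.9% in LOS 4 to 63.9% in LOS 2, with more allelic reads (158) than total counts (94.7). SELENOM, a selenoprotein gene, ran from 38.9% in LOS 4 to 76.4% in LOS 6. No fetus was at the extreme of all of these genes, and none of the 6 passed the test of a common imbalance. Among called genes ELOVL7, a fatty acid elongase gene with a lowest library of 60 reads and also picked after its values were seen, had 41.5% in LOS 1 and 57.6% to 81.7% in the other 5 (adjusted p = 0.0191, lost without LOS 2, 3, 4 or 5, up to 0.0839).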
